A study of Arabidopsis thaliana with 12 samples.

Results

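The response of wild-type Arabidopsis thaliana seedlings to a short auxin treatment was examined in 6 RNA sequencing libraries out of 12 in the series. They were chosen by their titles and count columns: 3 libraries of wild-type seedlings given the natural auxin indole-3-acetic acid (IAA) and 3 of wild-type seedlings given solvent alone, called mock here. Per the labels, the seedlings were of the accession Col-0, 3 days after germination, grown on solid medium and kept in liquid medium for 30 min before treatment. The IAA group then received 1 uM IAA in 0.02% dimethyl sulfoxide for 30 min, and the mock group 0.02% dimethyl sulfoxide for the same time. The other 6 libraries came from the er erl2 double mutant, which lacks function of the receptor kinases ERECTA and ERECTA-LIKE 2, after the same IAA and mock treatments. They shared the estimate of spread, and their values stand beside the wild-type ones where named. RNA came from whole seedlings, so a change in one organ is averaged with all others, and fewer cells of a type cannot be told apart from less RNA per cell. The labels do not say whether replicates were separate cultures, so p-values measure the spread between these samples, which may be technical.

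Auxin is perceived in the nucleus by TIR1/AFB F-box proteins, which, with auxin bound, mark Aux/IAA repressors for destruction and so release auxin response factors (ARFs) to act on their target genes. The earliest and best known targets are the Aux/IAA genes themselves, the GH3 genes, whose products conjugate auxin to amino acids, and the SAUR genes, small growth-promoting proteins. Auxin also starts lateral roots, patterns vascular tissue and acts on the synthesis and breakdown of other hormones, and the genes outside the classic families are the subject here.

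The wild-type libraries held 30676041 to 34187347 counts with IAA and 28930625 to 30362382 counts with mock, and 21376 of 37336 genes passed the count filter. Levels are given as CPM, counts over the scaled library size as in the usual counts-per-million unit, and differences as log2 fold changes with their standard error (SE). Pairs of replicates differed by more than sampling noise in both groups. The first principal component of the 6 libraries held 35.8% of their variance and separated the IAA from the mock libraries, and the second held 21.3% and separated mock replicate 1 from mock replicate 3. The label of whole seedlings was checked with markers fixed for each organ. Summed markers of cotyledon and leaf were at 33434 to 36844 CPM with IAA and 32451 to 34050.4 CPM with mock, and summed root markers were at 90.2 to 113 CPM with IAA and 109 to 133 CPM with mock. The flower markers AP3, PI and AG summed to under 1 CPM in every wild-type library. The pollen markers VGD1 and LAT52 had 0 counts in all 3 IAA libraries, while VGD1 had 63, 11 and 0 counts and LAT52 2, 3 and 1 counts in mock replicates 1, 2 and 3; neither passed the count filter, so neither was tested. ERECTA itself was at 6.89, 6.7 and 8.39 CPM with IAA and 4.92, 6.17 and 8.57 CPM with mock in er erl2. In wild type it was at 53.1, 58.9 and 53.8 CPM with IAA and 61.3, 56.8 and 63.6 CPM with mock, where IAA made a difference of -0.13 (SE 0.13) that was not called (adjusted edgeR p 0.79).

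Most genes that passed the test below were higher with IAA after 30 min. By edgeR's quasi-likelihood test with Benjamini-Hochberg adjustment at 0.05 (a gene past it is named called), 259 of 21376 genes, 1.21%, differed between the IAA and mock libraries. Of these, 226 were higher with IAA (1.06% of all genes tested) and 33 were lower (0.154%). Among the raised genes 126 rose at least 2-fold, 52 at least 4-fold and 12 at least 8-fold, and 42 rose by under 1.5-fold. Among the lowered genes 18 fell at least 2-fold and 6 at least 4-fold. The raised genes had a median of 17.7 CPM with IAA and 8.36 CPM with mock, beside 14.7 CPM in both groups over all genes tested. The lowered genes were scarcer, at a median of 2.60 CPM with IAA and 5.24 CPM with mock. In none of the 259 genes did the 3 IAA libraries overlap the 3 mock libraries. Over all genes tested, 6.98% lay above every mock library in all IAA libraries and 6.45% lay below. At an unadjusted edgeR p under 0.05 there were 2089 genes, 1045 of them higher with IAA. The excess of raised genes thus holds for the called genes and not at that looser threshold. The median log2 fold change of all genes was 0.00.

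**Figure D1:**
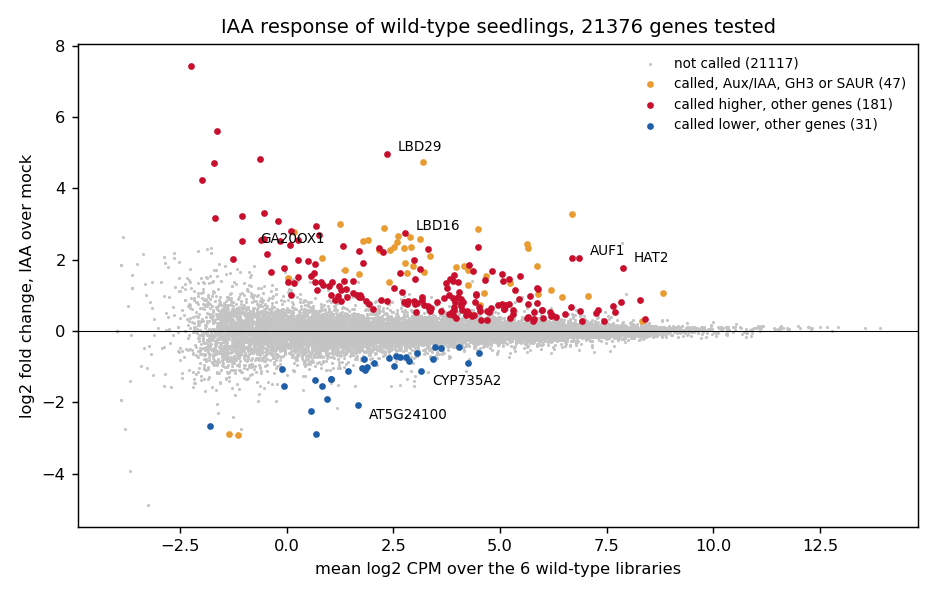
Log2 fold change (IAA over mock) of each of the 21376 genes tested in wild type, against its mean log2 CPM over the 6 libraries. Orange points are called Aux/IAA, GH3 and SAUR genes, red points other genes called higher, blue points other genes called lower, and grey points genes that were not called; LBD29 stands at 4.95 and AT5G24100 at -2.06.

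The strength of the calls was uneven. In 6 fits that each left out 1 wild-type library, 137 of the 226 raised genes and 8 of the 33 lowered genes passed in every fit. The number called fell to 164 without mock replicate 2 and was 337 without mock replicate 3. Of the raised genes, 110 had their highest mock value in replicate 3 and 32 in replicate 2, whereas over all genes tested 32.0% peaked in mock replicate 3 and 31.8% in mock replicate 2. Of the 33 lowered genes, 24 had their highest mock value in replicate 2 and 1 in replicate 3. Mock replicate 3 thus lay closer to the IAA libraries for many responsive genes. The GH3 gene GH3.3, picked after its value was seen, is an example: it had 604, 616 and 619 CPM in the IAA libraries, against 65.3, 49.99 and 214 CPM in the mock libraries. With that spread its log2 fold change of 2.48 (SE 0.50) was not called by edgeR (adjusted edgeR p 0.066). DESeq2 and limma-voom called it higher. The part of single libraries in the calls beyond these fits was not tested.

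The letters in front of the responsive genes were read from the TAIR10.1 genome, since ARFs are known to bind DNA at a TGTC core, most strongly as TGTCTC or TGTCGG. In windows of 300 bases, 250 before to 50 after the annotated gene start, TGTCTC on either strand was present in 25.7% of the 226 raised genes, 18.2% of the 33 lowered genes and 13.8% of 21294 tested genes with a window. Among the 181 raised genes outside the Aux/IAA, GH3 and SAUR families it was present in 23.8%, and among the 45 raised genes of those families in 33.3%. TGTCGG was in 7.52% of the raised, 6.06% of the lowered and 5.55% of all windows. The bare TGTC, which both hexamers contain, was in 90.3%, 72.7% and 81.7%. CACGTG, the G-box bound by many bHLH and bZIP factors, was in 7.08% of the raised, 3.03% of the lowered and 8.54% of all windows. These shares are descriptions, and no site was tested for binding. The 250 bases before the start are printed here for LBD29, the largest increase of moderate level (mean log2 CPM 1 or more) outside the classic families, for the 4 raised genes described further on with the smallest p that hold TGTCTC there in a stretch free of other annotated genes, and for AT5G24100, the largest decrease of moderate level. They are written 5′ to 3′ on the gene's own strand, from RefSeq's TAIR10.1, with every TGTC or its complement GACA in capitals, and the full TGTCTC or GAGACA where present.
LBD29 (chr3:21549573-21549822, reverse strand): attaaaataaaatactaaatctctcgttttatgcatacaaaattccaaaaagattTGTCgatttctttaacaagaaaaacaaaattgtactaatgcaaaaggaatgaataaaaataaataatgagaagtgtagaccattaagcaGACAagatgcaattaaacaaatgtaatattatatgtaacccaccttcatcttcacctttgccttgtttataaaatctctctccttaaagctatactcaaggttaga
BAS1 (chr2:11380213-11380462, forward strand): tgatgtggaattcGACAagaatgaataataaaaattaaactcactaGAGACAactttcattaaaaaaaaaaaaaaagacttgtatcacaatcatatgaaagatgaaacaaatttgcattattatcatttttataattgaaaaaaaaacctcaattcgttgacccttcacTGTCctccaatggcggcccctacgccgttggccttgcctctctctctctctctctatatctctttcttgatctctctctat
UCNL (chr3:7286443-7286692, reverse strand): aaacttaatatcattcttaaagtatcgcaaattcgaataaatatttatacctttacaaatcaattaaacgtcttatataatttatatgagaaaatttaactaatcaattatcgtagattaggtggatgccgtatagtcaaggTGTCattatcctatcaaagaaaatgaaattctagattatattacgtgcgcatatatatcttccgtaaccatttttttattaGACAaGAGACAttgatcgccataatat
AUF1 (chr1:29387422-29387671, forward strand): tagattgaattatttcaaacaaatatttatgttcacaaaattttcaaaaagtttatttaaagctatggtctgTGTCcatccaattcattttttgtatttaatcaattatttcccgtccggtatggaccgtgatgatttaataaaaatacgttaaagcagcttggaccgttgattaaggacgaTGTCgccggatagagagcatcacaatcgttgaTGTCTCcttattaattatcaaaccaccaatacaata
CLE44 (chr4:7663262-7663511, reverse strand): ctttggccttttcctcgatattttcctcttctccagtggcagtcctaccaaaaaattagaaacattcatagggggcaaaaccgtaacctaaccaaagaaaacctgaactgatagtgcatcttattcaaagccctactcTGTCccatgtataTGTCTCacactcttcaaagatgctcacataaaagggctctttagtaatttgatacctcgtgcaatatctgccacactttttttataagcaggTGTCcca
AT5G24100 (chr5:8148294-8148543, forward strand): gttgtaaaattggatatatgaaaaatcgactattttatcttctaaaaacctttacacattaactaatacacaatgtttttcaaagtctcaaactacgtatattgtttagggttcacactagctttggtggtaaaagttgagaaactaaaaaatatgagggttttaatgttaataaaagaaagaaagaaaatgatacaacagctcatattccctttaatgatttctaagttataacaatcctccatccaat
LBD29 had 2 copies of the core and neither hexamer in this stretch. BAS1, UCNL, AUF1 and CLE44 had 3 copies each, 1 of them within TGTCTC. Counted back from the start, that hexamer began 22 bases before the start in UCNL, 36 bases in AUF1, 99 bases in CLE44 and 204 bases in BAS1, and it read on the opposite strand in BAS1 and UCNL. AT5G24100 had 0 copies.

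The classic families give the scale against which the other genes can be read. Of 28 Aux/IAA genes tested, 14 rose and 0 fell, of 63 SAUR genes 27 rose and 1 fell, and of 14 GH3 genes 4 rose and 1 fell. Their raised shares were 50%, 42.9% and 28.6%, beside 1.06% of all genes tested. Their medians were 0.41, 0.43 and 0.21 on the log2 scale. The member with the largest change was IAA5 (AT1G15580) among the repressors at 4.75 (SE 0.12), AT2G18010 among the SAUR genes at 2.99 (SE 0.27), and BRU6 (AT4G37390, also known as GH3.2) among the GH3 genes at 3.29 (SE 0.42). IAA5 overlaps AT1G15570 in the annotation and its counts are uncertain. Without mock replicate 3 the BRU6 difference was 4.07. The lowered SAUR gene AT5G10990 and GH3 gene AT5G51470, both chosen here after their values were seen, were scarce, at 0.141 ± 0.135 CPM with IAA and 1.102 ± 0.172 CPM with mock and at 0.124 ± 0.0824 CPM with IAA and 0.928 ± 0.501 CPM with mock (SD, n = 3 each). AT5G10990 fell by 2.91 (SE 0.49), and by 4.06 without IAA replicate 1, and AT5G51470 fell by 2.87 (SE 0.54). Leaving out 1 library ended the call of AT5G51470 (IAA replicate 1 or mock replicate 2), with adjusted edgeR p of 0.0629 to 0.075. The wild-type libraries fitted alone did not give a call for BRU6 and AT5G51470 (adjusted edgeR p 0.0803 to 0.142). Together these 3 families held 45 of the 226 raised genes and 2 of the 33 lowered ones. Of the other 181 raised genes, 59 were in the other families listed, 15 in families added after values were seen, and 107 in none.

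**Figure D2:**
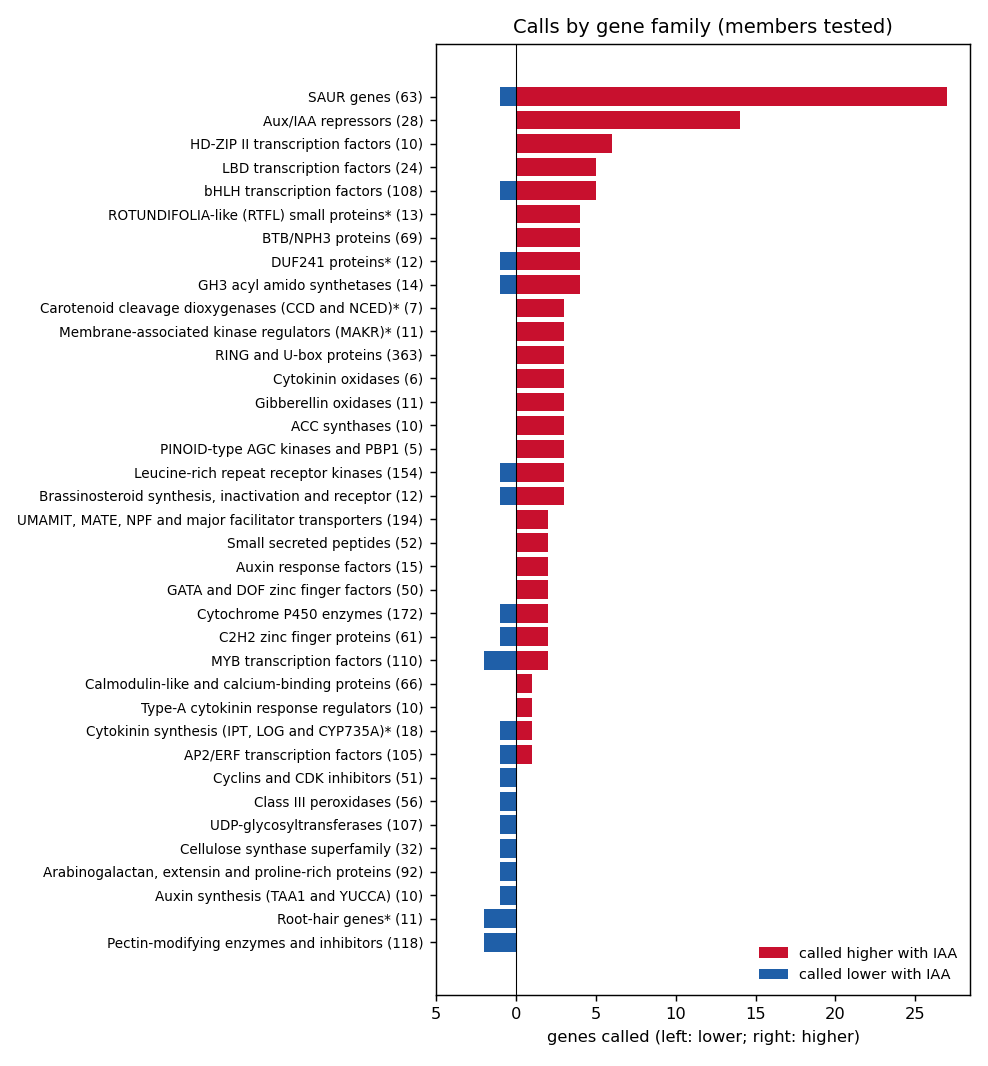
Number of genes called higher (red, to the right) and lower (blue, to the left) with IAA in the gene families reported here that held at least 1 call, with the number of members tested in parentheses. SAUR and Aux/IAA genes lead with 27 and 14 genes called higher, followed by HD-ZIP II and LBD genes with 6 and 5; an asterisk marks families chosen after values were seen.

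The LATERAL ORGAN BOUNDARIES DOMAIN (LBD) transcription factors contained LBD29, the largest increase outside the classic families among genes of moderate level. LBD16 and LBD29 act downstream of ARF7 and ARF19 in starting lateral roots. LBD29 (AT3G58190) had 29.2, 29.4 and 29.7 CPM in the IAA libraries, against 0.519, 0.574 and 1.76 CPM in the mock libraries. The IAA libraries lay within 1 CPM of each other, and mock replicate 3 was about 3 times the other mock libraries but far under any IAA library. Its log2 fold change was 4.95 (SE 0.34), a 31.01-fold increase (adjusted edgeR p 3.38e-05), and 5.74 without mock replicate 3. LBD16 (AT2G42430) had 18.3, 16.4 and 18.5 CPM with IAA, against 2.92, 1.96 and 3.04 CPM with mock, without overlap, a difference of 2.74 (SE 0.15). Next to it on chromosome 2 lies ASL15 (AT2G42440, also called LBD17), which had 4.12, 3.997 and 4.44 CPM with IAA, against 0.551, 0.574 and 0.507 CPM with mock and rose by 2.93 (SE 0.25). LBD14 (AT2G31310), also linked to lateral roots, was scarce, at 1.45, 2.15 and 2.07 CPM with IAA, against 0.227, 0.169 and 0.169 CPM with mock, and rose by 3.297 (SE 0.39). Adjusted edgeR p ran from 1.32e-07 to 0.000222 for these 3. LBD4 (AT1G31320), with a role in vascular tissue and named after its value was seen, had 7.27, 9.07 and 9.903 CPM with IAA, against 4.18, 2.499 and 4.697 CPM with mock, a rise of 1.202 (SE 0.24) (adjusted edgeR p 0.0285). When 1 library was left out, LBD4 (IAA replicate 2 or 3 or mock replicate 1 or 2) lost the call, at adjusted edgeR p of 0.0672 to 0.131. LBD4 was not called when wild type was fitted alone, at adjusted edgeR p of 0.0551. In all, 5 of 24 tested LBD genes rose (20.8%, against 1.06% of all genes) and 0 fell, and the family's median was 0.06, close to the 0.00 of all genes. LBD18, another lateral root gene, averaged 1.47 CPM with IAA and 0.691 CPM with mock and was not called by edgeR (adjusted edgeR p 0.0976). DESeq2 called it higher.

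Other called genes known from root branching, vascular tissue or meristems belong to no common list. GATA23 (AT5G26930), a zinc finger factor that specifies the founder cells of lateral roots, had 1.75, 3.28 and 3.32 CPM in the IAA libraries, against 0.422, 0.574 and 0.406 CPM in the mock libraries. All 3 IAA libraries were at least 3 times the highest mock library, for a difference of 2.56 (SE 0.31) (adjusted edgeR p 0.00023). The DOF factor TMO6 (AT5G60200), a target of the ARF MONOPTEROS in the embryo, changed less but with little scatter, at 27.99, 29.6 and 29.1 CPM with IAA, against 17.5, 17.7 and 18.8 CPM with mock, by 0.68 (SE 0.07). BHLH32 (AT3G25710, known as TMO5), which promotes the divisions that widen vascular tissue, had 24.02, 22.3 and 23.7 CPM with IAA, against 12.4, 13.1 and 14.5 CPM with mock and rose by 0.81 (SE 0.10). HB-8 (AT4G32880), a marker of early vein cells, averaged 43 ± 5.68 CPM with IAA and 33.1 ± 1.31 CPM with mock (SD, n = 3 each) and rose by 0.38 (SE 0.08). HAM2 (AT3G60630), a GRAS factor that maintains meristems, had 56.3, 60.8 and 61.5 CPM with IAA, against 32.96, 30.3 and 31.8 CPM with mock and rose by 0.91 (SE 0.07). BRX (AT1G31880), which promotes root growth and phloem formation, had 10.3, 9.904 and 8.55 CPM with IAA, against 5.45, 4.05 and 3.89 CPM with mock and rose by 1.101 (SE 0.14). Adjusted edgeR p of these 5 genes ran from 2.71e-06 to 0.0454. HB-8, HAM2 and BRX were picked after their values were seen. Of 50 GATA and DOF factors tested, GATA23 and TMO6 were the 2 called (4%, beside 1.06% called higher over all genes tested), and 0 fell. The call was lost without 1 library for HB-8 (IAA replicate 2 or 3 or mock replicate 1, 2 or 3), where adjusted edgeR p was 0.0552 to 0.243. In a fit of wild type alone, HB-8 was not called (adjusted edgeR p 0.177).

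The HD-ZIP II transcription factors, homeodomain proteins with known roles in shade avoidance and leaf polarity, rose broadly as a family. Of 10 members, all tested, 6 rose (60%, against 1.06% of all genes tested) and 0 fell. All 10 had a positive difference, and the median was 0.63 against 0.00 over all genes. HAT2 (AT5G47370), a long-known auxin-inducible member, was the most abundant of the genes named for large increases, at 441, 405 and 479.6 CPM in the IAA libraries, against 129, 101 and 155 CPM in the mock libraries. Its difference was 1.78 (SE 0.13), a 3.44-fold increase. HB17 (AT2G01430) had 14.7, 13.4 and 11.7 CPM with IAA, against 4.93, 4.02 and 5.51 CPM with mock, a rise of 1.46 (SE 0.14). HAT3 (AT3G60390), which helps set the upper side of leaves, had 22.4, 19.6 and 19.7 CPM with IAA, against 12.7, 9.25 and 10.6 CPM with mock, a rise of 0.92 (SE 0.11). HAT22 (AT4G37790) had 67.6, 62.9 and 66.7 CPM with IAA, against 40.03, 34.7 and 41.5 CPM with mock, a rise of 0.76 (SE 0.08). The adjusted edgeR p of these 4 ran from 1.52e-05 to 0.000177. HAT1 (AT4G17460) and HB18 (AT1G70920), named after their values were seen, rose by 0.49 (SE 0.08) and 0.97 (SE 0.21). Without the library in parentheses, HB18 (IAA replicate 1, 2 or 3 or mock replicate 2 or 3) did not pass the threshold (adjusted edgeR p 0.051 to 0.19). With wild type fitted alone there was no call for HB18 (adjusted edgeR p 0.112). The shade marker HB-2 (ATHB-2) averaged 8.85 CPM with IAA and 6.99 CPM with mock and was not called (adjusted edgeR p 0.343).

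Among 108 bHLH factors, 5 rose (4.63%, against 1.06% of all genes tested) and 1 fell (0.926%, against 0.154%). KDR (AT1G26945, KIDARI) and PRE1 (AT5G39860) are small proteins of this family that do not bind DNA and promote cell elongation. KDR had 59.99, 46 and 48.9 CPM in the IAA libraries, against 23.6, 10.13 and 14.5 CPM in the mock libraries, with mock replicate 2 lowest and no overlap, and PRE1 had 1.898, 1.55 and 3.59 CPM with IAA, against 0.681, 0.473 and 0.608 CPM with mock. They rose by 1.68 (SE 0.25) and 1.98 (SE 0.33). BEE1 (AT1G18400), an early brassinosteroid-induced gene, had 79.6, 65.9 and 86.3 CPM with IAA, against 48.8, 39.7 and 45.1 CPM with mock and rose by 0.79 (SE 0.11), and its relative BEE2 (AT4G36540) by 1.15 (SE 0.21). With BHLH32 these made up the 5. The lowered gene of this list was AT5G48560, at 18.5 ± 1.13 CPM with IAA and 28.3 ± 3.35 CPM with mock (SD, n = 3 each). RHD6, a bHLH factor not matched by the list's name search, fell too and is given with the lowered genes. BEE2 and AT5G48560 were named after their values were seen. Of 110 MYB factors 2 rose and 2 fell (1.82% each, beside 1.06% raised and 0.154% lowered over all genes tested). MYB50 (AT1G57560) had 13.2, 16.2 and 19.6 CPM with IAA, against 3.41, 2.297 and 6.69 CPM with mock, a rise of 1.98 (SE 0.31), and MYB47 (AT1G18710) rose by 0.96 (SE 0.21). MYB61 (AT1G09540), a regulator of stomatal opening and of xylem formation, fell by 1.53 (SE 0.25), at 0.86, 0.984 and 1.18 CPM with IAA, against 3.41, 3.21 and 2.13 CPM with mock, and MYB86 (AT5G26660) fell by 0.899 (SE 0.18). Adjusted edgeR p ran from 0.00141 to 0.0381 over these 9 genes. A fit without 1 library did not call BEE2 (IAA replicate 1 or 3 or mock replicate 2 or 3), AT5G48560 (IAA replicate 1, 2 or 3 or mock replicate 2), MYB50 (mock replicate 1), MYB47 (each library) and MYB86 (IAA replicate 2 or 3 or mock replicate 1 or 2) (adjusted edgeR p 0.0584 to 0.187). KDR, BEE2 and MYB50 were not called when wild type was fitted alone, at adjusted edgeR p of 0.173 to 0.19.

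The AP2/ERF family, best known for ethylene, cold and wound responses, had 1 raised and 1 lowered gene among 105 tested. That is 0.952% each, beside 1.06% raised and 0.154% lowered over all genes tested. ESE3 (AT5G25190) averaged 10.4 ± 1.35 CPM with IAA and 6.12 ± 0.814 CPM with mock and rose by 0.77 (SE 0.16). WRI1 (AT3G54320, WRINKLED1), which drives fatty acid synthesis genes, averaged 6.68 ± 1.07 CPM with IAA and 10.2 ± 0.5602 CPM with mock (SD, n = 3 each) and fell by 0.62 (SE 0.14). Of 61 C2H2 zinc finger genes 2 rose (3.28%), ZFP2 (AT5G57520) by 1.51 (SE 0.32) and AT1G68360 by 1.01 (SE 0.22), and 1 fell (1.64%), ZFP5, described with the lowered genes. Adjusted edgeR p of these 4 genes ran from 0.0285 to 0.0406. Leaving out 1 library ended the call of ESE3 (IAA replicate 1 or 3 or mock replicate 2 or 3), WRI1 (IAA replicate 1 or 3 or mock replicate 1, 2 or 3), ZFP2 (IAA replicate 1, 2 or 3 or mock replicate 2 or 3) and AT1G68360 (IAA replicate 1, 2 or 3 or mock replicate 1 or 2), with adjusted edgeR p of 0.0537 to 0.23. In a fit of wild type alone, WRI1, ZFP2 and AT1G68360 were not called (adjusted edgeR p 0.076 to 0.0776). Among 56 WRKY and 75 NAC factors, many of them stress regulators, edgeR called 0. At an unadjusted p under 0.05 there were 6 WRKY and 10 NAC genes, beside 2089 of all 21376 genes, and DESeq2, which called 1.92% of all genes, called 1 of each and limma-voom 1 WRKY and 0 NAC genes.

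Within the auxin pathway no receptor gene was called. TIR1 averaged 56.4 CPM with IAA and 55.2 CPM with mock, and the 6 TIR1/AFB genes differed by -0.09 to 0.03, with 0 called by edgeR, 0 by DESeq2 and 0 by limma-voom, and 0 at an unadjusted p under 0.05. Of 15 ARF genes tested 2 rose (13.3%, beside 1.06% of all genes tested) and 0 fell. ARF19 (AT1G19220), an activating ARF of lateral root formation, had 42.5, 49.7 and 44.4 CPM in the IAA libraries, against 27.5, 24.7 and 30.5 CPM in the mock libraries and rose by 0.72 (SE 0.09). Its gene overlaps AT1G19210 on the same strand. ARF10 (AT2G28350), a repressing ARF, had 29.4, 37.5 and 36.8 CPM with IAA, against 19.4, 22.3 and 25.01 CPM with mock and rose by 0.64 (SE 0.12). ARF7 (named NPH4 in the annotation) differed by 0.02 and MONOPTEROS by 0.03, both not called. PIN3 (AT1G70940), an efflux carrier that redirects auxin in gravity and light responses, had 312, 279 and 315 CPM with IAA, against 195, 142 and 179.6 CPM with mock and rose by 0.81 (SE 0.15). Of the 4 AUX1/LAX importers edgeR, DESeq2 and limma-voom called 0, and 2 had an unadjusted p under 0.05. Adjusted edgeR p was 0.000441 to 0.023 for ARF19, ARF10 and PIN3. When 1 library was left out, ARF10 (IAA replicate 2 or 3 or mock replicate 1 or 2) and PIN3 (IAA replicate 1 or 3 or mock replicate 2 or 3) lost the call, at adjusted edgeR p of 0.0521 to 0.096. The wild-type libraries fitted alone did not give a call for ARF10 (adjusted edgeR p 0.0559).

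Some regulators of the PIN carriers rose as well. Of 5 genes in the list of PINOID-type kinases and their binding protein, edgeR called 3 higher and 0 lower, with a median of 0.84. The raised share was 60%, beside 1.06% of all genes tested. PBP1 (AT5G54490), a calcium-binding protein that binds the kinase PINOID, had 37.7, 37.9 and 36.03 CPM in the IAA libraries, against 11.8, 7.19 and 11.96 CPM in the mock libraries. Its IAA values spanned under 2 CPM, and the difference was 1.85 (SE 0.18). It overlaps AT5G08205 on the other strand. PID (AT2G34650, PINOID), the kinase that directs PIN proteins to one side of the cell, had 9.697, 14.9 and 11.98 CPM with IAA, against 6.71, 6.52 and 6.76 CPM with mock, and its relative WAG2 (AT3G14370) had 6.82, 6.86 and 6.84 CPM with IAA, against 3.86, 4.83 and 2.74 CPM with mock. They rose by 0.87 (SE 0.16) and 0.84 (SE 0.17). WAG1 lay the other way, at an average of 2.64 CPM with IAA and 4.50 CPM with mock. EdgeR did not call it (adjusted edgeR p 0.103), and DESeq2 called it lower. NPY5 (AT4G37590), of the BTB/NPH3 family that works with PINOID in organ formation, had 129, 153 and 146 CPM with IAA, against 101, 90.04 and 102 CPM with mock and rose by 0.55 (SE 0.08). AT1G67900, another NPH3 family gene of unknown role, had 184, 201 and 249.7 CPM with IAA, against 52.5, 38.3 and 61.4 CPM with mock, a rise of 2.06 (SE 0.25). SETH6 rose by 0.58 (SE 0.08), and BOP2, a co-regulator of leaf and organ boundaries, by 0.63 (SE 0.12). Thus edgeR called 4 of 69 BTB/NPH3 genes higher (5.80%, beside 1.06% of all genes tested) and 0 lower. NPY4 and NPY2, not called by edgeR (adjusted edgeR p 0.0695 and 0.107), differed by -0.77 and 0.73. DESeq2 called NPY4 lower and NPY2 higher. Auxin synthesis leaned the other way, with 1 edgeR call. Of 10 TAA1 and YUCCA genes, YUC6 (AT5G25620) fell by 0.699 (SE 0.14), at 4.003, 4.77 and 5.03 CPM with IAA, against 7.95, 7.701 and 6.76 CPM with mock, and 0 rose. Of the 10, 2 lay above 0, and 4 had an unadjusted edgeR p under 0.05, 0 of them higher. DESeq2 also called YUC9 lower, at -0.888 (adjusted edgeR p 0.102). WAT1 (AT1G75500), which exports auxin from the vacuole, was picked after its value was seen and rose by 0.51 (SE 0.08). Adjusted edgeR p ran from 0.000208 to 0.025 over the 9 genes that edgeR called here. The call was lost without 1 library for PID (mock replicate 2), WAG2 (IAA replicate 1, 2 or 3 or mock replicate 1 or 3), BOP2 (IAA replicate 3 or mock replicate 2) and YUC6 (IAA replicate 1 or 2 or mock replicate 1 or 2), where adjusted edgeR p was 0.0524 to 0.0925. WAG2, BOP2 and YUC6 were not called when wild type was fitted alone, at adjusted edgeR p of 0.0536 to 0.0924.

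Genes of ethylene and gibberellin synthesis were raised. ACC synthases (ACS) make the direct precursor of ethylene. Of 10 tested 3 rose (30%, beside 1.06% of all genes tested) and 0 fell, with a family median of 1.14. ACS4 (AT2G22810) had 26.6, 19.03 and 22.5 CPM in the IAA libraries, against 4.35, 2.87 and 6.62 CPM in the mock libraries, a rise of 2.300 (SE 0.34). ACS6 (AT4G11280) had 40.8, 43.1 and 41.6 CPM with IAA, against 9.02, 19.9 and 17.7 CPM with mock, a rise of 1.43 (SE 0.24) with mock replicate 1 lowest. ACS9 (AT3G49700) was near the limit of detection with mock, at 0.8303, 0.746 and 0.625 CPM with IAA, against 0, 0.0675 and 0.169 CPM with mock, and its fitted rise of 3.18 (SE 0.63) was 4.32 without mock replicate 3. ACS11 (AT4G08040) had 36.3, 37.2 and 31.2 CPM with IAA, against 6.62, 12.6 and 20.2 CPM with mock. EdgeR did not call its difference of 1.41 (SE 0.34) (adjusted edgeR p 0.138), while DESeq2 called it higher. ACS5 differed by 1.74 and was not called by edgeR (adjusted edgeR p 0.0642), while DESeq2 and limma-voom called it higher. ACS11 and ACS5 were named after their values were seen.

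Gibberellins are made active by GA20 and GA3 oxidases and inactivated by GA2 oxidases. Of 11 such genes tested edgeR called 3 (27.3%, beside 1.06% called higher over all genes tested), all higher and all of synthesis. GA20OX1 (AT4G25420) had 6.702, 4.53 and 5.72 CPM in the IAA libraries, against 1.39, 0.777 and 1.08 CPM in the mock libraries, a 5.19-fold increase, or 2.37 (SE 0.26) on the log2 scale. GA20OX2 (AT5G51810) had 3.97, 3.401 and 3.39 CPM with IAA, against 1.91, 1.32 and 1.22 CPM with mock, a rise of 1.27 (SE 0.21), and GA3OX1 (AT1G15550), which makes the final active form, had 17.9, 19.8 and 22.1 CPM with IAA, against 12.2, 8.31 and 9.23 CPM with mock, a rise of 1.01 (SE 0.18). The synthesis gene GA20OX3 lay the other way, at 0 CPM in all IAA libraries and an average of 0.111 CPM with mock, about the floor of 3 counts; edgeR did not call it (adjusted p 0.12) and limma-voom did. The synthesis genes GA20OX5 and GA3OX2 differed by 0.65 and 0.202 and were not called. The GA2 oxidase genes GA2OX2, GA2OX4, GA2OX6, GA2OX7 and GA2OX8 were tested and not called, with differences from -0.38 to 0.43. GAI (AT1G14920), a DELLA repressor of gibberellin responses that was picked after its value was seen, rose by 0.28 (SE 0.06), at 59.8, 58.1 and 63.99 CPM with IAA, against 52.1, 49.6 and 47.95 CPM with mock. Adjusted edgeR p of the called ACS and gibberellin genes ran from 0.000113 to 0.0276. Without the library in parentheses, ACS4 (mock replicate 1), ACS6 (IAA replicate 1, 2 or 3), ACS9 (IAA replicate 1, 2 or 3 or mock replicate 1 or 2), GA3OX1 (IAA replicate 3 or mock replicate 2 or 3) and GAI (IAA replicate 1 or 3 or mock replicate 2 or 3) did not pass the threshold (adjusted edgeR p 0.0518 to 0.136). In a fit of wild type alone, ACS6, ACS9 and GAI were not called (adjusted edgeR p 0.0554 to 0.194).

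**Figure D3:**
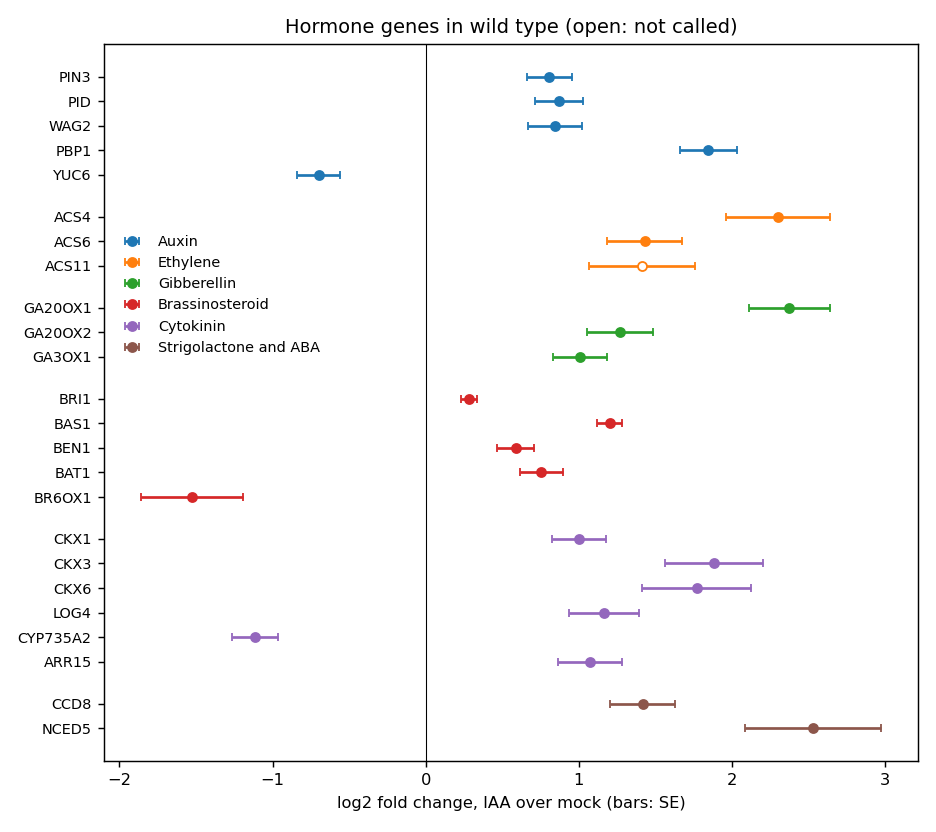
Log2 fold change of genes of hormone synthesis, breakdown, transport and perception in wild type, IAA over mock, with bars for the SE and colours for the hormone; a filled circle is a called gene. The genes shown for gibberellin and ethylene synthesis, for brassinosteroid inactivation (BAS1, BEN1, BAT1) and for cytokinin breakdown (CKX1, CKX3, CKX6) lie to the right of 0, while YUC6, BR6OX1 and CYP735A2 lie to the left. The genes shown are a selection. Of members neither shown nor called by edgeR, GA20OX3, ACS7, ACS12 and CKX4 lay to the left, and GA20OX5, ACS2 and CKX5 to the right. The brassinosteroid synthesis genes DWF4 and CPD, also not shown, lay to the right.

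For brassinosteroids, steroid hormones of cell elongation, edgeR called 3 of 12 listed genes higher (BAS1, BEN1 and BRI1) and 1 lower (BR6OX1). That is 25% higher and 8.33% lower, beside 1.06% and 0.154% of all genes tested. BAS1 (AT2G26710), a cytochrome P450 that inactivates brassinosteroids by hydroxylation, had 19.6, 21.5 and 20.4 CPM in the IAA libraries, against 9.57, 8.21 and 8.95 CPM in the mock libraries. Both groups were tight, and its rise of 1.201 (SE 0.08) had the smallest p of the hormone genes named here (adjusted edgeR p 1.4e-06). BEN1 (AT2G45400), a reductase of brassinosteroid metabolism, had 46.4, 56.5 and 42.7 CPM with IAA, against 27.3, 36.5 and 33.1 CPM with mock, a rise of 0.59 (SE 0.12). BAT1 (AT4G31910), an acyltransferase that lowers active brassinosteroids, was picked after its value was seen. It had 40.3, 52.1 and 51.6 CPM with IAA, against 31.1, 28.9 and 25.3 CPM with mock, a rise of 0.75 (SE 0.14). BR6OX1 (AT5G38970), which catalyses a last step of synthesis, was scarce, at 0.593, 0.388 and 0.625 CPM with IAA, against 1.46, 2.09 and 1.08 CPM with mock, and fell by 1.53 (SE 0.33). The receptor gene BRI1 (AT4G39400) was abundant and changed by a small amount, at 196, 185 and 188 CPM with IAA, against 162, 149.6 and 156 CPM with mock, 0.29 (SE 0.05). CYP72C1, another P450 of inactivation, differed by 0.04 (adjusted edgeR p 0.954). DWF4, a rate-limiting enzyme of synthesis, differed by 0.42 and was not called by edgeR (adjusted edgeR p 0.0560). DESeq2 called DWF4 higher and the synthesis gene CYP90D1 lower, at -0.54 (adjusted edgeR p 0.129). Adjusted edgeR p ran from 0.00969 to 0.0345 for BEN1, BAT1, BR6OX1 and BRI1. A fit without 1 library did not call BEN1 (IAA replicate 1 or 2 or mock replicate 1 or 3), BAT1 (IAA replicate 2 or 3 or mock replicate 2 or 3), BR6OX1 (IAA replicate 1, 2 or 3 or mock replicate 1 or 2) and BRI1 (IAA replicate 1 or mock replicate 2) (adjusted edgeR p 0.0611 to 0.223). With wild type fitted alone there was no call for BEN1, BR6OX1 and BRI1 (adjusted edgeR p 0.0695 to 0.165).

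Cytokinin, which opposes auxin in root branching, was touched at breakdown, synthesis and response. Cytokinin oxidases (CKX) degrade the hormone. Of 6 tested 3 rose (50%, beside 1.06% of all genes tested) and 0 fell, with a median of 0.78. CKX3 (AT5G56970) had 3.203, 2.89 and 2.797 CPM in the IAA libraries, against 0.778, 1.047 and 0.574 CPM in the mock libraries, CKX6 (AT3G63440) had 1.69, 1.49 and 1.97 CPM with IAA, against 0.324, 0.338 and 0.845 CPM with mock, and CKX1 (AT2G41510) had 3.32, 5.31 and 4.51 CPM with IAA, against 2.4, 2.09 and 2.06 CPM with mock. They rose by 1.89 (SE 0.32), 1.77 (SE 0.36) and 1.001 (SE 0.17). CKX1 and CKX6 overlap other annotated genes on the other strand, and CKX6 rose by 2.36 without mock replicate 3. CYP735A2 (AT1G67110), the P450 that makes trans-zeatin, the form of cytokinin sent from root to shoot, had 6.198, 5.67 and 6.22 CPM with IAA, against 14.2, 13.4 and 11.5 CPM with mock. It fell by 1.11 (SE 0.15). Its relative CYP735A1 differed by -0.93 and was not called (adjusted edgeR p 0.279). LOG4 (AT3G53450), whose product releases active cytokinin, had 2.25, 2.71 and 2.07 CPM with IAA, against 0.876, 1.11 and 1.15 CPM with mock, a rise of 1.17 (SE 0.23). It overlaps AT3G08340 on the other strand. Of 18 genes of cytokinin synthesis, a list added after values were seen, LOG4 and CYP735A2 were the 2 called. That is 5.56% raised and 5.56% lowered, beside 1.06% and 0.154% of all genes tested. Of 10 type-A response regulators, quickly induced brakes on cytokinin signalling, ARR15 (AT1G74890) rose by 1.07 (SE 0.21), at 3.26, 3.76 and 5.63 CPM with IAA, against 1.91, 2.09 and 1.99 CPM with mock, and edgeR called 0 lower. ARR3 averaged 1.24 CPM with IAA and 3.40 CPM with mock, a difference of -1.45. EdgeR did not call it (adjusted edgeR p 0.110), while DESeq2 and limma-voom called it lower. DESeq2 also called ARR7 higher, at 0.62 (adjusted edgeR p 0.283). Adjusted edgeR p was 0.000711 to 0.0208 over the 6 genes that edgeR called here. Leaving out 1 library ended the call of CKX6 (IAA replicate 1 or 3 or mock replicate 1 or 2), LOG4 (IAA replicate 2 or mock replicate 1 or 2) and ARR15 (IAA replicate 3 or mock replicate 1 or 2), with adjusted edgeR p of 0.0578 to 0.131. CKX6, CKX1, LOG4 and ARR15 were not called when wild type was fitted alone, at adjusted edgeR p of 0.0551 to 0.0744.

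Carotenoid cleavage enzymes held 3 raised genes of 7 tested (42.9%, beside 1.06% of all genes tested) and 0 lowered ones. The family was added after values were seen, so its share of calls leans high. CCD7 (AT2G44990) and CCD8 (AT4G32810) act in sequence in the synthesis of strigolactones, hormones that restrain shoot branching. CCD8 had 4.3, 3.64 and 4.51 CPM in the IAA libraries, against 2.17, 1.18 and 1.28 CPM in the mock libraries, a rise of 1.42 (SE 0.21). It overlaps AT4G32820 on the other strand. CCD7 had 0.445, 0.895 and 0.757 CPM with IAA, against 0.0973, 0 and 0 CPM with mock, with every mock library at or under 3 counts and all mock counts from replicate 1, and was at least 6.99-fold higher against a floor of 3 counts per library. NCED5 (AT1G30100), of the committed step of abscisic acid synthesis, had 0.8896, 1.104 and 0.954 CPM with IAA, against 0.162, 0.101 and 0.237 CPM with mock, a rise of 2.53 (SE 0.44). NCED3, the main stress-induced member of that step, differed by 0.17 and was not called (adjusted edgeR p 0.813). Of 12 JAZ repressors of jasmonate responses edgeR, DESeq2 and limma-voom called 0, with 1 at an unadjusted p under 0.05. NPR3 (AT5G45110), a salicylate receptor picked after its value was seen, rose by 0.36 (SE 0.08), at 56.1, 60.9 and 52.2 CPM with IAA, against 38.9, 48.8 and 43.96 CPM with mock. Adjusted edgeR p ran from 0.00178 to 0.0377 for CCD7, CCD8, NCED5 and NPR3. When 1 library was left out, NCED5 (mock replicate 2) and NPR3 (IAA replicate 1 or 2 or mock replicate 1 or 3) lost the call, at adjusted edgeR p of 0.0587 to 0.145. In a fit of wild type alone, NPR3 was not called (adjusted edgeR p 0.177).

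Secreted peptides and proteins that act at the plasma membrane were among the largest increases. Of 52 peptide genes tested 2 rose (3.85%, beside 1.06% of all genes tested) and 0 fell. CLE44 (AT4G13195), which encodes the TDIF peptide that keeps vascular stem cells from differentiating, had 6.08, 7.43 and 8.16 CPM in the IAA libraries, against 1.85, 0.709 and 1.96 CPM in the mock libraries, a 4.77-fold increase, or 2.26 (SE 0.27) on the log2 scale. It overlaps AT4G13190 on the same strand. RGF9 (AT5G64770), a root meristem growth factor, had 32.7, 32.5 and 47.02 CPM with IAA, against 14.95, 8.27 and 11.7 CPM with mock, a rise of 1.68 (SE 0.20). Of 11 membrane-associated kinase regulators (MAKR), 3 rose (27.3%, beside 1.06% of all genes tested) and 0 fell. This list was added after values were seen, so its share of calls leans high. MAKR4 (AT2G39370), which takes part in lateral root initiation, had 8.48, 10.2 and 12.7 CPM with IAA, against 1.85, 1.11 and 3.28 CPM with mock, a rise of 2.33 (SE 0.32). AT1G53163, annotated as a member, had 10.4, 10.4 and 10.2 CPM with IAA, against 2.14, 1.69 and 2.77 CPM with mock, a rise of 2.23 (SE 0.18), and MAKR6 (AT5G52900) had 56.8, 50.5 and 66.4 CPM with IAA, against 19.9, 17.1 and 20.6 CPM with mock, a rise of 1.59 (SE 0.13). Of 154 leucine-rich repeat receptor kinases 3 rose (1.95%, beside 1.06% of all genes tested) and 1 fell (0.649%, beside 0.154%). AT2G41820 rose by 0.48 (SE 0.06), AT4G26540 by 0.58 (SE 0.12) and BRI1 as given above, and AT5G24100 fell. The AGC kinase gene UCN (AT1G51170, UNICORN), which keeps ovule and floral cell layers flat, had 22.1, 28.2 and 29.5 CPM with IAA, against 9.47, 5.98 and 11.4 CPM with mock, a rise of 1.57 (SE 0.20), and the related UCNL (AT3G20830) had 24.2, 25.1 and 27.8 CPM with IAA, against 10.3, 9.12 and 10.5 CPM with mock, a rise of 1.36 (SE 0.10). UCNL was picked after its value was seen. Adjusted edgeR p over these 9 genes was 3.39e-06 to 0.034. The call was lost without 1 library for AT4G26540 (IAA replicate 2 or 3 or mock replicate 2 or 3), where adjusted edgeR p was 0.0929 to 0.2. The wild-type libraries fitted alone did not give a call for RGF9 (adjusted edgeR p 0.0633).

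Small-protein families of little known function also held several raised genes. Both lists here were added after values were seen, so their shares of calls lean high. The short products of ROTUNDIFOLIA-like (RTFL) genes limit cell proliferation along organs when overproduced. Of 13 RTFL genes tested, 4 rose (30.8%, beside 1.06% of all genes tested) and 0 fell. RTFL13 (AT3G23635) had 2.64, 2.36 and 2.204 CPM in the IAA libraries, against 0.0973, 0.304 and 0.439 CPM in the mock libraries, a rise of 3.09 (SE 0.42), and RTFL19 (AT3G02493) had 1.39, 1.7 and 1.35 CPM with IAA, against 0.162, 0.304 and 0.2703 CPM with mock, a rise of 2.58 (SE 0.34). RTFL16 (AT3G25717), which lies beside BHLH32, and RTFL17 (AT1G13245) were much more abundant, at 74.5, 66.6 and 81.8 CPM with IAA, against 43.7, 29.2 and 39.4 CPM with mock and at 135, 119 and 135 CPM with IAA, against 90.3, 64 and 87.3 CPM with mock, and rose by 0.99 (SE 0.13) and 0.69 (SE 0.11). Of 12 genes with the plant domain DUF241, 4 rose (33.3%, beside 1.06%) and 1 fell (8.33%, beside 0.154%). AT2G17680 had 0.415, 0.955 and 0.658 CPM with IAA, against 0, 0 and 0 CPM with mock, that is 0 counts in every mock library, and was at least 6.76-fold higher against the floor of 3 counts per library. AT1G76210 had 1.22, 1.85 and 1.61 CPM with IAA, against 0.1297, 0.2702 and 0.372 CPM with mock, a rise of 2.59 (SE 0.38), and the neighbours AT4G35210 and AT4G35200 rose by 2.42 (SE 0.40) and 1.41 (SE 0.24). In the other direction AT1G76240 fell by 0.79 (SE 0.14), at 8.24, 8.98 and 7.17 CPM with IAA, against 12.9, 15.4 and 13.99 CPM with mock. Adjusted edgeR p was 0.000536 to 0.00726 over these 9 genes. Without the library in parentheses, AT1G76240 (IAA replicate 3) did not pass the threshold (adjusted edgeR p 0.0609). RTFL17 was not called when wild type was fitted alone, at adjusted edgeR p of 0.0885.

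**Figure D4:**
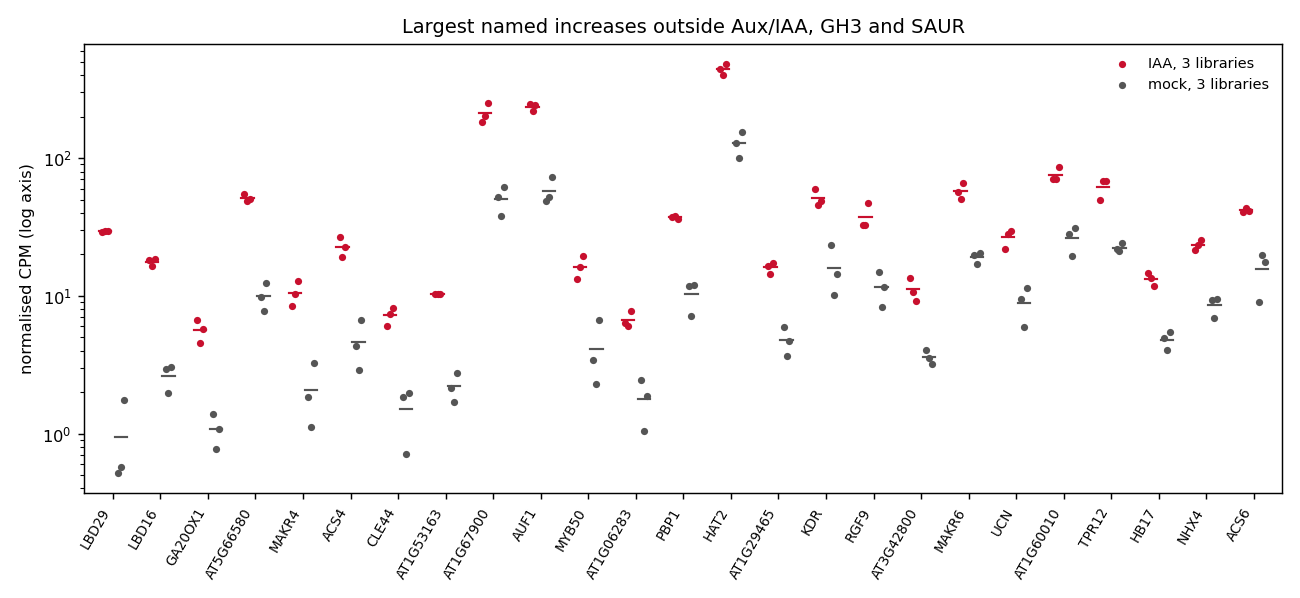
Normalised CPM (log axis) in each wild-type library for the 25 largest called increases of moderate level outside the Aux/IAA, GH3 and SAUR families, with IAA libraries in red to the left and mock libraries in grey to the right of each gene, and a line at each mean. No IAA library overlaps a mock library for any of these genes, from LBD29 (4.95 on the log2 scale) to ACS6 (1.43).

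The remaining large increases were spread over unrelated proteins. AUF1 (AT1G78100), an F-box protein named for its induction by auxin, had 246, 220.4 and 244 CPM in the IAA libraries, against 48.6, 51.9 and 72.5 CPM in the mock libraries, a 4.11-fold increase, or 2.04 (SE 0.13) on the log2 scale. AT5G66580, of unknown function, had 54.9, 48.5 and 50.5 CPM with IAA, against 9.86, 7.73 and 12.5 CPM with mock, a rise of 2.36 (SE 0.15). TPR12 (AT1G78120), with tetratricopeptide repeats, had 49.6, 67.9 and 68.8 CPM with IAA, against 21.96, 21.01 and 24.2 CPM with mock, a rise of 1.47 (SE 0.14). NHX4 (AT3G06370), a sodium/proton exchanger, had 21.6, 23.6 and 25.3 CPM with IAA, against 9.28, 6.96 and 9.43 CPM with mock, a rise of 1.46 (SE 0.13). For each of these 4 genes every IAA library lay above every mock library. AT1G60010, annotated as a D-ribose-binding periplasmic protein, rose by 1.53 (SE 0.16), and AT3G42800, annotated as AF-like protein, by 1.63 (SE 0.16). Among 363 RING and U-box proteins, many of them ubiquitin ligases, 3 rose (0.826%, beside 1.06% of all genes tested) and 0 fell: AT5G41400 by 1.36 (SE 0.15), AT1G63840 by 0.53 (SE 0.10) and AT4G10150 by 2.02 (SE 0.43). The calcium-binding EF-hand gene AT3G29000 was the 1 call among 66 calcium-binding genes (1.52%, beside 1.06% called higher over all genes tested) and rose by 1.56 (SE 0.27). AT4G11340, of the TIR-NBS-LRR class, was picked after its value was seen. It had 1.39, 1.402 and 0.987 CPM with IAA, against 0, 0 and 0.0676 CPM with mock and was at least 12.6-fold higher against the floor of 3 counts per library. All its mock counts came from replicate 3, and it overlaps AT4G11330. Adjusted edgeR p was 2.63e-06 to 0.0292 for these 11 genes. A fit without 1 library did not call AT1G63840 (IAA replicate 2 or mock replicate 2) and AT4G10150 (IAA replicate 1 or mock replicate 2 or 3) (adjusted edgeR p 0.0547 to 0.18). In a fit of wild type alone, AT1G63840 and AT4G10150 were not called (adjusted edgeR p 0.0588 to 0.137).

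Some raised loci lie where reads cannot be assigned with certainty. AT1G29465 and the noncoding locus AT1G06283 rose by 1.75 (SE 0.16) and 1.91 (SE 0.22), with adjusted edgeR p of 1.65e-05 and 0.000138. They overlap each other and stand beside raised SAUR genes on chromosome 1. The noncoding locus AT5G02865, picked after its value was seen, had 3.17, 2.83 and 2.797 CPM with IAA, against 0.195, 0 and 0.101 CPM with mock and lies between SAUR genes on chromosome 5. Its difference was 4.82 (SE 0.47), and 5.75 without mock replicate 1. Of the 226 raised genes 8 do not code for protein and 39 overlap another annotated gene. Among the 39 are also AT4G26540, BOP2, LNG1, LNG2 and IAA9. Of the 33 lowered genes 1, AT5G03553, overlaps another. Over all 21376 genes tested, 889 do not code for protein and 6523 overlap another, so neither trait is particular to the raised genes. Whether counting used strand is not given in the sources used here. Among 21290 pairs of adjacent tested genes, 32 pairs had both genes called higher, 13 of them pairs of Aux/IAA, GH3 or SAUR genes. Of the 452 neighbours of raised genes, counted once from each side, 14.2% were called higher, against 1.06% of all genes. In 12 of the 32 pairs at least 1 locus is noncoding or overlaps another, and 10 pairs are neither of that kind nor pairs of those 3 families. Outside the SAUR clusters, LBD16 stands beside ASL15, BHLH32 beside RTFL16, PIN3 beside HB18, and PBP1 beside FQR1 and BBX29.

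Abundant genes responded too. The 10 called genes of highest mock level included HAT2, PIN3 and BRI1, described above, and the Aux/IAA genes IAA2 and IAA9. AT5G62280, of the family DUF1442, had 455, 376 and 437 CPM in the IAA libraries, against 263, 170.1 and 259 CPM in the mock libraries, a rise of 0.87 (SE 0.15). FQR1 (AT5G54500), a quinone reductase long known as an early auxin gene, had 250.1, 234 and 260.4 CPM with IAA, against 185, 144 and 189 CPM with mock, a rise of 0.52 (SE 0.09). AT5G12050, annotated as a rho GTPase-activating protein, had 263, 234 and 265 CPM with IAA, against 153, 139.8 and 178 CPM with mock, a rise of 0.695 (SE 0.09). PIP5K1 (AT1G21980), which makes the membrane lipid phosphatidylinositol 4,5-bisphosphate, rose by 0.58 (SE 0.09), at 216, 173 and 187 CPM with IAA, against 125, 121 and 139.6 CPM with mock. LNG1 (AT5G15580) and LNG2 (AT3G02170), a pair of genes that promote lengthwise cell growth, were picked after their values were seen and rose by 0.54 (SE 0.09) and 0.59 (SE 0.10). Ribosomal 18S RNA (AT3G41768) remained in these poly-A libraries at 379 ± 17.8 CPM with IAA and 298 ± 22.8 CPM with mock (SD, n = 3 each) and was called higher by 0.35 (SE 0.07). Adjusted edgeR p of these 7 loci was 0.000524 to 0.0255. Leaving out 1 library ended the call of AT5G62280 (IAA replicate 1 or 3), FQR1 (IAA replicate 3) and AT3G41768 (IAA replicate 2 or 3 or mock replicate 3), with adjusted edgeR p of 0.0567 to 0.0991. With wild type fitted alone there was no call for AT5G62280, FQR1 and AT3G41768 (adjusted edgeR p 0.0661 to 0.167).

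The 33 lowered genes were mostly scarce, and few of them share a family. The pollen markers given above were also lower with IAA, mainly through mock replicates 1 and 2. Without mock replicate 1, which held most of the VGD1 counts, 42 genes were called lower. Without mock replicate 2, which held 11 counts of VGD1 and 3 of LAT52, 11 genes were called lower. The part of pollen RNA in the decreases was not tested. The largest decrease of moderate level was in the leucine-rich repeat kinase gene AT5G24100, which had 1.04, 2.48 and 1.25 CPM in the IAA libraries, against 5.77, 8.34 and 5.85 CPM in the mock libraries. Every IAA library was under every mock library, and the difference was -2.06 (SE 0.26) (adjusted edgeR p 0.000568). Its neighbour AGP41 (AT5G24105), an arabinogalactan protein, fell too, at 0.801, 1.43 and 0.658 CPM with IAA, against 2.59, 2.74 and 2.196 CPM with mock, by 1.37 (SE 0.25). AUF2 (AT1G22220), the closest relative of the raised AUF1, had 0.8896, 1.28 and 1.68 CPM with IAA, against 2.72, 3.92 and 3.04 CPM with mock and fell by 1.33 (SE 0.23). AT1G44608, of unknown function, had 1.22, 1.07 and 1.48 CPM with IAA, against 3.08, 3.55 and 2.84 CPM with mock and fell by 1.33 (SE 0.21). The pectin lyase-like genes AT1G05650 and AT3G59850 were the 2 calls among 118 pectin genes (1.69%, beside 0.154% called lower over all genes tested). They had 0.326, 1.04 and 0.461 CPM with IAA, against 3.05, 7.498 and 3.24 CPM with mock, and 0.593, 1.46 and 0.954 CPM with IAA, against 3.34, 5.47 and 2.57 CPM with mock. AT1G05650 fell by 2.897 (SE 0.43) and AT3G59850 fell by 1.91 (SE 0.36). Without IAA replicate 2 the difference of AT1G05650 was -3.54. UGT75B2 (AT1G05530), a UDP-glucosyl transferase and the 1 call among 107 (0.935%), had 0.415, 0.925 and 0.691 CPM with IAA, against 2.69, 4.66 and 2.196 CPM with mock and fell by 2.23 (SE 0.42). For AT1G05650, AT3G59850 and UGT75B2, IAA replicate 2 was the highest IAA library and mock replicate 2 the highest mock library. Adjusted edgeR p was 0.0025 to 0.0194 for the 6 genes after AT5G24100. When 1 library was left out, AGP41 (IAA replicate 1 or 3 or mock replicate 2), AT3G59850 (IAA replicate 1 or 3 or mock replicate 2) and UGT75B2 (IAA replicate 1 or 3 or mock replicate 2) lost the call, at adjusted edgeR p of 0.0557 to 0.108. AGP41, AUF2, AT1G05650 and AT3G59850 were not called when wild type was fitted alone, at adjusted edgeR p of 0.0536 to 0.0924.

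**Figure D5:**
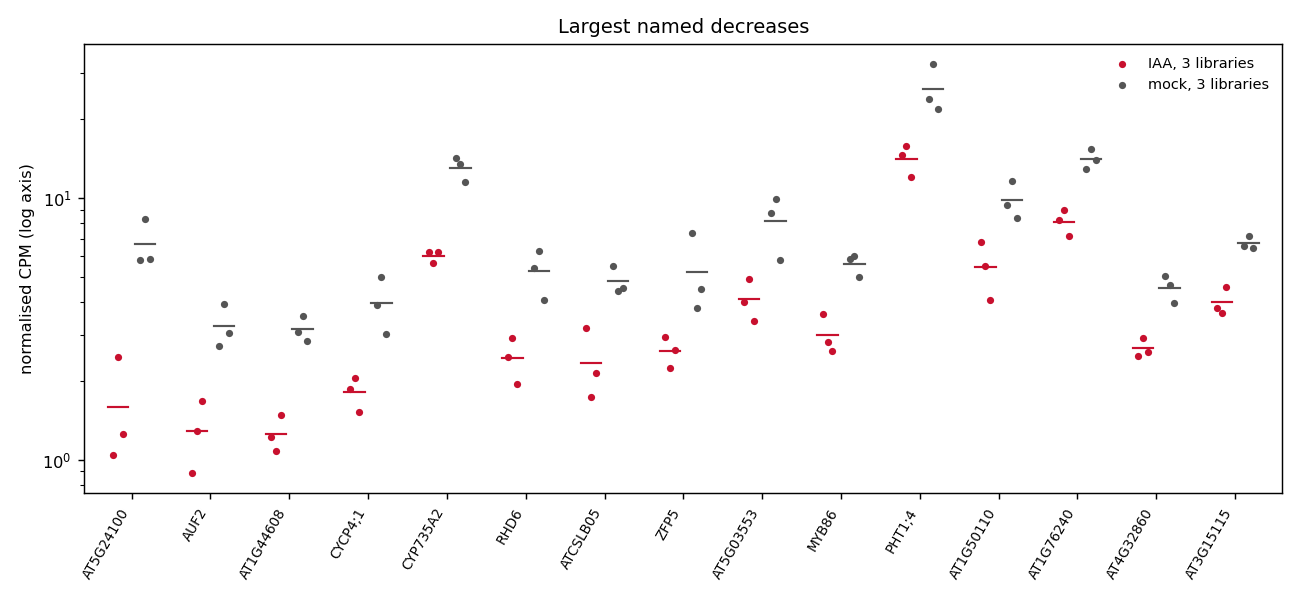
Normalised CPM (log axis) in each wild-type library for the 15 largest called decreases of moderate level, with IAA libraries in red to the left and mock libraries in grey to the right of each gene, and a line at each mean. All 3 IAA libraries lie under all 3 mock libraries for each gene, and most of the genes lie under 10 CPM.

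Genes with root functions were present among the lowered ones. RHD6 (AT1G66470), the bHLH factor that starts root hairs, had 2.46, 2.92 and 1.94 CPM in the IAA libraries, against 5.38, 6.25 and 4.09 CPM in the mock libraries, and ZFP5 (AT1G10480), a zinc finger factor that also promotes root hairs, had 2.94, 2.24 and 2.63 CPM with IAA, against 7.36, 3.78 and 4.49 CPM with mock. They fell by 1.097 (SE 0.21) and 1.004 (SE 0.23). Of 11 root-hair genes, a list added after values were seen, edgeR called these 2 lower and 0 higher, and the median was -0.29. The lowered share was 18.2%, beside 0.154% of all genes tested. Of the 11, 3 lay above 0, among them EXPA7 and RSL4, which act late in hair growth, at 0.04 and 0.12. The lowest lay at -2.29 and was not called by edgeR. SHV2 (COBL9) was at -0.71, called lower by DESeq2 and not by edgeR (adjusted edgeR p 0.148). An unadjusted edgeR p under 0.05 was reached by 5 members, 0 of them higher. PHT1;4 (AT2G38940), a phosphate importer of roots, had 14.6, 15.8 and 12.1 CPM with IAA, against 23.97, 32.5 and 21.9 CPM with mock and fell by 0.88 (SE 0.14). Of the 7 root markers 1, RHD6, was called by edgeR. PLT1, COBL9, PIN2, WOX5 and SCR differed by -0.87, -0.71, -0.28, -0.18 and -0.13, and SHR by 0.03. The summed root marker level was at 90.2 to 113 CPM with IAA and 109 to 133 CPM with mock, overlapping ranges. The part of root content in these decreases was not tested. CYCP4;1 (AT2G44740), a P-type cyclin gene, fell by 1.12 (SE 0.23) and was the 1 call among 51 cyclin and CDK inhibitor genes (1.96%, beside 0.154% called lower over all genes tested). ATCSLB05 (AT4G15290), of the cellulose synthase superfamily, fell by 1.04 (SE 0.23), and the peroxidase gene AT5G15180 by 0.48 (SE 0.10). AT5G03553, AT1G50110, AT4G32860 and AT3G15115, the rest of the 15 largest decreases with MYB86 and AT1G76240 above, fell by 0.99, 0.84, 0.77 and 0.75. Adjusted edgeR p over these 10 genes ran from 0.00418 to 0.0488. The call was lost without 1 library for RHD6 (IAA replicate 1 or 3 or mock replicate 2), ZFP5 (IAA replicate 1, 2 or 3 or mock replicate 1), CYCP4;1 (IAA replicate 1 or 3 or mock replicate 2), ATCSLB05 (IAA replicate 2 or 3 or mock replicate 1, 2 or 3), AT5G15180 (IAA replicate 1 or 3 or mock replicate 1, 2 or 3), AT5G03553 (IAA replicate 1 or 3 or mock replicate 2), AT1G50110 (IAA replicate 2 or 3 or mock replicate 2), AT4G32860 (IAA replicate 1, 2 or 3 or mock replicate 1 or 2) and AT3G15115 (each library), where adjusted edgeR p was 0.0552 to 0.216. In a fit of wild type alone, ZFP5, PHT1;4, CYCP4;1, ATCSLB05, AT5G15180, AT5G03553, AT1G50110 and AT4G32860 were not called (adjusted edgeR p 0.0542 to 0.177).

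Expansins, xyloglucan endotransglucosylase/hydrolases (XTH) and plasma membrane proton pumps act in wall loosening and cell growth. EdgeR called 0 of 24, 0 of 26 and 0 of 9 of them, too few genes for a count of 0 to stand apart from the 1.21% called over all genes tested, and limma-voom called 0 in each. DESeq2 called 3 expansins (12.5%), 3 XTH genes (11.5%) and 0 pumps, against 1.92% of all genes. An unadjusted edgeR p under 0.05 was reached by 5 expansins (20.8%), 4 XTH genes (15.4%) and 2 pumps, against 9.77% of all genes. Of the genes that DESeq2 called, EXPA14, EXPA17, EXPB1, XTH8 and XTH13 were lower with IAA and XTH19 was higher, with edgeR differences of -0.75, -1.39, -1.04, -0.297, -0.81 and 0.64 and adjusted edgeR p of 0.0949 to 0.393. The main proton pump gene HA2 (AHA2) averaged 864.7 CPM with IAA and 974 CPM with mock, a difference of -0.17 (adjusted edgeR p 0.461). Of 111 ABC transporters edgeR, DESeq2 and limma-voom called 0, with 12 at an unadjusted p under 0.05, and of 28 aquaporins the same tools called 0, with 1. The MATE transporter gene ZF14 (AT1G58340) and AT1G59740, of the nitrate and peptide transporter family, were the 2 calls among 194 other transporters (1.03%, beside 1.06% called higher over all genes) and rose by 0.804 (SE 0.13) and 0.55 (SE 0.12). Of 172 cytochrome P450 genes, 2 rose (1.16%, beside 1.06% of all genes tested) and 1 fell (0.581%, beside 0.154%). CYP78A7 (AT5G09970), of a group that promotes organ growth, and CYP96A1 (AT2G23180) rose by 0.77 (SE 0.15) and 0.77 (SE 0.15), and CYP735A2 fell. Adjusted edgeR p ran from 0.00433 to 0.0293 over these 4 raised genes. Without the library in parentheses, AT1G59740 (IAA replicate 2 or 3 or mock replicate 1), CYP78A7 (IAA replicate 1 or 2 or mock replicate 1 or 2) and CYP96A1 (IAA replicate 1 or mock replicate 2) did not pass the threshold (adjusted edgeR p 0.0565 to 0.16). The wild-type libraries fitted alone did not give a call for AT1G59740 (adjusted edgeR p 0.158).

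Lists of genes that respond to handling or to the time of day were read in the same way. EdgeR called 0 of 14 early touch, wounding and cold genes, 0 of 60 heat shock genes, 0 of 14 clock genes and 0 of 16 photosystem antenna genes, lists too short for a count of 0 to stand apart from the 1.21% called over all genes tested. At an unadjusted p under 0.05 there were 1, 2, 2 and 2 genes, DESeq2 called 1, 0, 0 and 0, and limma-voom called 0 in each. The DESeq2 call was GRX480, a glutaredoxin gene of the first list, which averaged 1.72 ± 0.516 CPM with IAA and 0.644 ± 0.101 CPM with mock (SD, n = 3 each), a difference of 1.41 (SE 0.32) with an adjusted edgeR p of 0.0515. The touch gene TCH4 averaged 105 CPM with IAA and 152 CPM with mock, with an adjusted edgeR p of 0.804. Medians of the 4 lists were -0.08, -0.02, 0.07 and 0.09 in wild type. In er erl2 they were 0.84, 0.00, -0.09 and 0.03 between IAA and mock, with 0 genes called in each list. The part of handling in the er erl2 values was not tested. Glutathione transferases, often raised by foreign chemicals, gave 0 calls by edgeR among 41 tested, 5 at an unadjusted p under 0.05, 1 by DESeq2 and 1 by limma-voom.

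The same genes were read in er erl2, whose IAA and mock libraries are separate from those of wild type. Of the 226 genes raised in wild type 224 also had a positive difference in er erl2 and 178 were called there, where 328 genes (1.53%) were called in all, and of the 33 lowered genes 33 also had a negative one and 13 were called. Over all genes tested, 12070 of 21376 had the same sign in both genotypes. The median log2 fold change of the raised genes was 1.06 in er erl2 and 1.12 in wild type, and that of the lowered genes -0.77 in er erl2 and -1.04 in wild type. These genes were chosen in wild type, so their values there lean away from 0. The difference between the genotypes was tested as an interaction for every gene, and edgeR called 0, and DESeq2 called 16. An unadjusted interaction p under 0.05 was reached by 70 of the 226 raised genes (30.97%), 4 of the 33 lowered genes (12.1%) and 1279 of all genes (5.98%); the interaction contains the wild-type difference by which the raised and lowered genes were chosen. Without 1 wild-type library edgeR called 7 (mock replicate 1), 1 (mock replicate 2) or 1 (mock replicate 3). Among the members named here, the smallest unadjusted interaction p outside the SAUR genes was that of AT3G62070, picked for this value, at 2.51, 2.75 and 2.99 CPM with IAA and 2.88, 2.702 and 2.599 CPM with mock in er erl2, and 3.56, 3.01 and 3.19 CPM with IAA and 1.23, 1.55 and 0.98 CPM with mock in wild type. Its IAA effect was 0.01 (SE 0.17) in er erl2 and 1.37 (SE 0.18) in wild type. PBP1 rose by 3.27 (SE 0.21) in er erl2 and 1.85 (SE 0.18) in wild type, and CKX1 by 1.798 (SE 0.18) and 1.001 (SE 0.17). LBD29 rose by 6.22 (SE 0.37) in er erl2 and 4.95 (SE 0.34) in wild type, HAT2 by 1.53 (SE 0.13) and 1.78 (SE 0.13), and BAS1 by 1.43 (SE 0.08) and 1.201 (SE 0.08). Unadjusted interaction p was 8.65e-05 for AT3G62070, 0.000283 for PBP1, 0.00692 for CKX1, 0.061 for LBD29, 0.187 for HAT2 and 0.0685 for BAS1, and none passed adjustment over all genes.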

How the data were processed

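Whole 3-day-old seedlings were sequenced as poly-A selected, strand-specific libraries, per the labels' protocols. The authors deposited 1 table of raw read counts per gene for all 12 libraries. The submitters' processing notes name bcl2fastq, STAR 2.7.6a, featureCounts 2.0.0 and TAIR10; the annotation version and strand setting are not given in the sources used here. All 12 count columns were matched to samples by name, and 0 were left over.

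Genes were filtered with filterByExpr (at least 10 counts) and scaled by TMM. EdgeR 4.0.16 (R 4.3.3) fitted 1 mean per group over 12 libraries, with robust quasi-likelihood tests and Benjamini-Hochberg adjustment over 21376 genes. CPM are counts over TMM-scaled library sizes. The script was tested on simulated data. Alternatives were DESeq2 1.42.0, limma-voom (limma 3.58.1), other filters and scalings, wild type alone, replicate blocks and leaving out each library. A total of 28930625 to 34187347 counts puts 3 counts at about 0.1 CPM; this floor covers counting error only, since reads are not independent molecules.

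Genes were named by rule: the 25 largest called increases outside the classic families and the 15 largest decreases (mean log2 CPM 1 or more), up to 4 called members of smallest p per list, the 10 called genes of highest mock level, and genes said to be picked after their values were seen. One gene that the rule names is not reported here. The members, lists and rule were chosen with earlier results of these data known, and some lists were added later. Lists came from locus codes and product names, and false matches were removed. Gene names and loci came from RefSeq's TAIR10.1 annotation, which matched 37051 of 37336 IDs. Promoter windows were read from its genome; the 6 shown were chosen after values were seen.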

Additional observations from a re-analysis of the deposited data

Results flagged for a closer look

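SR1 (AT5G01820), a serine/threonine protein kinase gene, was flagged because its samples moved in opposite directions in the 2 genotypes. It had 28.8, 30.3 and 28.8 CPM with IAA, against 31.5, 31.1 and 34.6 CPM with mock, in er erl2. In wild type it had 29.98, 28.01 and 28.1 CPM with IAA, against 23.3, 23.3 and 22.7 CPM with mock. The difference of the IAA effect between er erl2 and wild type was -0.46 (SE 0.09) on the log2 scale, with an unadjusted edgeR p of 0.000122 and an adjusted p of 0.342, so the interaction was not called.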

How the results depend on the processing

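Against 259 genes called (226 higher and 33 lower), DESeq2 called 411 (106 lower), the wild-type libraries alone 172 (13 lower), and a minimum log2 fold change of 1 left 144 (126 higher, 18 lower). Leaving out 1 library gave 164 to 337 calls, 153 to 249 of them higher and 11 to 88 lower; without 1 library the lower calls were 11 (mock replicate 2 or IAA replicate 3), 19 (IAA replicate 1), 51 (IAA replicate 2) and 88 (mock replicate 3). The interaction gave 0 calls, 16 with DESeq2, and 0 to 7 when 1 wild-type library was left out. Other filters and scalings and limma-voom gave 230 to 284 calls. Limma-voom did not call BR6OX1, ZFP5, HB-8, MYB47, AT1G68360 and AT3G59850. No called gene changed sign under any of these settings. The settings reuse the same counts, and no called gene had overlapping groups, so a change of sign could hardly occur. Of 136 named calls, 22 to 46 were lost without 1 library. Over all settings 627 counts of calls per gene list stayed within 1.5 times the reported count and 221 did not. The cause was not tested.

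Deviations of same-numbered IAA and mock libraries correlated at 0.054, 0.087 and 0.0067, under the 0.1 asked of each pair for a pairing. IAA replicates 1 and 2 correlated best with the mock library of their own number, and IAA replicate 3 with mock replicate 1 (0.041). A shared origin of same-numbered libraries is not given by the labels. A replicate block from the titles gave 244 calls (57 lower), the same replicate block on wild type alone 162 (135 higher), and a replicate block from the prefixes of the count columns, added after seeing the data, 118 (113 higher, 5 lower). Losses named gene by gene above leave out these blocks. CCD7, AT2G17680, AT4G35210 and AT5G10990 lost the call in every replicate-block fit (adjusted edgeR p up to 0.383). LNG2, CCD8, CKX3, GA20OX2, MYB61, PRE1, NPY5 and AT1G67900, among others, lost it in at least 1. Depth limits the genes with at most 3 counts in each mock library, whose folds are given as lower bounds.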
